A study of Homo sapiens with 24 samples.

Results

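Interferon-stimulated genes are the antiviral genes that cells switch on when interferon binds its receptors. A list of 43 of them was read from RNA-seq counts of senescent and growing fibroblasts with and without a hairpin against HMGA1. IFI44, an interferon-induced gene of incompletely known function, was already known to be higher with the hairpin, and the question was whether that rise extended to the other genes of the list. The genes were chosen by symbol and found by Entrez identifier, and DDX58 was found under its present symbol RIGI. All 43 were among the 25702 identifiers counted, and 39 were among the 13356 genes that passed the filter on low counts.

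The cells were IMR90, a line of human lung fibroblasts, at passage 23-28, and every group carried a retroviral vector for ER:HRAS(G12V), an oncogenic RAS fused to an oestrogen receptor domain that is switched on by 4-hydroxytamoxifen (4OHT). Growing cells had the empty MSCV vector and no 4OHT, and shHMGA1 cells had MSCV miR30 shHMGA1 and no 4OHT. RIS cells (RAS-induced senescence) had the empty vector and 4OHT for 6 days, and RIS+shHMGA1 cells had the hairpin and 4OHT for 6 days. Each group held 6 libraries, which the labels call biological replicates, and the cells were infected populations with 1 hairpin vector, not clones.

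Type I interferons (interferon alpha and beta) signal through the receptors IFNAR1 and IFNAR2 and the kinases JAK1 and TYK2 to a complex that holds STAT2 and IRF9 and binds interferon response elements in the promoters of the genes listed here. Interferon gamma signals through a separate receptor and drives GBP1, GBP2 and IRF1 in particular. Many of these genes are expressed at a low level without added interferon, and interferon genes are known to be switched on late in the senescence of fibroblasts.

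Total counts per library ranged from 8698070 to 23103424. HMGA1 was the check of the hairpin. Its level was lowest at 639, median 683 and highest at 861 CPM (counts scaled to library size, by TMM) in growing cells, against 54.4, 116 and 143 CPM in shHMGA1 cells. It was 641, 728 and 786 CPM in RIS cells, against 60.0, 207 and 262 CPM in RIS+shHMGA1 cells, so that the groups with and without the hairpin did not overlap. Fibroblast markers had counts in all 24 libraries, at levels that varied widely between libraries except for VIM (vimentin), between 3174 and 5703 CPM. COL1A1 was between 428 and 23310 CPM, COL3A1 between 20.8 and 1901 CPM and PDGFRB between 17.0 and 226 CPM. The summed level of the fibroblast markers was 4953 to 39890 CPM in growing and 13320 to 19450 CPM in shHMGA1 cells. It was 5486 to 26560 CPM in RIS and 4144 to 5572 CPM in RIS+shHMGA1 cells. Each of the 11 epithelial, endothelial and immune markers stayed at or below 1.27 CPM, and CLEC4C and LILRA4, of plasmacytoid dendritic cells, had no count in any library. The summed level of the immune markers ranged from 0.514 to 0.851 CPM in growing, 0.369 to 1.32 CPM in shHMGA1, 0.338 to 0.998 CPM in RIS and 0.496 to 1.48 CPM in RIS+shHMGA1 cells.

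A pair of libraries stood apart from their groups and lay nearer to the cells of the other 4OHT state. Growing replicate 4 was at a root mean square log2 distance of 1.32 from its own group and 0.503 from the RIS group, and RIS replicate 2 at 1.08 from its own and 0.290 from the growing group. For the listed genes, growing replicate 4 was nearer to the RIS median than to the growing one in 31 of 39 tested genes, and RIS replicate 2 was nearer to the growing median in 34 of 39. Both were kept under their labels, and the main counts that rest on them are also given for the other 22 libraries.

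To show the element that these genes are known for, the 250 bases before the annotated start are printed for 4 genes that the results turn on. IFI44 stands for the hairpin, IFIT3 for a smaller difference in both cell states, and OAS3 and GBP1 for the falls with 4OHT. The sequences are RefSeq's on GRCh38.p14, written 5′ to 3′ in the direction of the gene. Capitals mark a pair of GAAA blocks separated by any 2 bases, on either strand, the core of an interferon-stimulated response element.

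IFI44, chr1:78649539-78649788, plus strand: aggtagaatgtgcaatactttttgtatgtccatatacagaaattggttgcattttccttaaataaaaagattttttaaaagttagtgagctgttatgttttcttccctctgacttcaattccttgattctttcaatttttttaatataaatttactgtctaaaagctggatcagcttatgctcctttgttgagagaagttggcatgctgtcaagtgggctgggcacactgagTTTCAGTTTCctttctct

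IFIT3, chr10:89327747-89327996, plus strand: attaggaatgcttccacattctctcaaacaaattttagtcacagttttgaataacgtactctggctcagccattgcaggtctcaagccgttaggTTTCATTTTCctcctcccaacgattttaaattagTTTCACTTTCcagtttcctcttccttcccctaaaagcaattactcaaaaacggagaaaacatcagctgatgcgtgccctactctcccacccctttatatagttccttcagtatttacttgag

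OAS3, chr12:112938224-112938473, plus strand: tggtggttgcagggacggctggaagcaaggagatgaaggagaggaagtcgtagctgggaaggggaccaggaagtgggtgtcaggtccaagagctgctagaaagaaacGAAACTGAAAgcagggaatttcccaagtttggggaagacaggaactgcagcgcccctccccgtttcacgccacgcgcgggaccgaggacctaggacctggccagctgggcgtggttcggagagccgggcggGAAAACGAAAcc

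GBP1, chr1:89065209-89065458, minus strand: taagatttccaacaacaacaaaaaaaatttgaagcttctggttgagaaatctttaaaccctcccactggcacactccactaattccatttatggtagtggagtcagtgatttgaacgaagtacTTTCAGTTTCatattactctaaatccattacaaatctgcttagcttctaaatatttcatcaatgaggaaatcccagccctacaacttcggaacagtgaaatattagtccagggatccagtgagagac

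The match in IFI44 begins 18 bases before the start, those in IFIT3 156 and 122 bases before it, those in OAS3 143 and 12 bases before it and that in GBP1 127 bases before it. The table held a window for 34 of the 43 genes, each reaching 250 bases before and 50 bases after the start. The pair of GAAA blocks was in 22 of these 34 windows (64.7%), against 3.65% of all 27305 promoters of that length. At least 2 pairs, which may overlap, were in 14 of the 34 and in 74 of all 27305. The other motif searched, TTCNNNGAA, which reads the same on both strands and is the core of the element known for the response to interferon gamma, was in 10 of 34 (29.4%), against 7.88% of all promoters. The windows lie at 1 annotated start per gene, and other starts and other spacings of the GAAA blocks were not searched. OAS1, RSAD2 and DDX58, counted here as without a pair, hold GAAA blocks 1 base apart in their windows.

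Per kilobase of canonical transcript, the listed genes spanned a wide range of levels in growing cells (5 libraries, without replicate 4). IFITM3, a membrane protein that blocks virus entry, had the highest median level at 220.7 CPM per kb (range 212 to 290.5), and ISG15, a ubiquitin-like modifier, followed at 54.9 CPM per kb (42.7 to 79.5), without overlap. IFITM2 at 48.0 CPM per kb (38.2 to 61.2) overlapped ISG15. IFI44 was in the middle at 3.63 CPM per kb, rank 21 of 43. IFI44L, OAS1, RSAD2 and BST2 did not pass the filter on low counts, so that changes in them were not tested. The highest value of any of them in the 24 libraries was 1.354 CPM, of BST2 in RIS replicate 5. IFI44L is the neighbour and relative of IFI44, on the same strand of chromosome 1 (79085587 to 79111830, against 79115481 to 79129763 for IFI44, GRCh37).

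**Figure D1:**
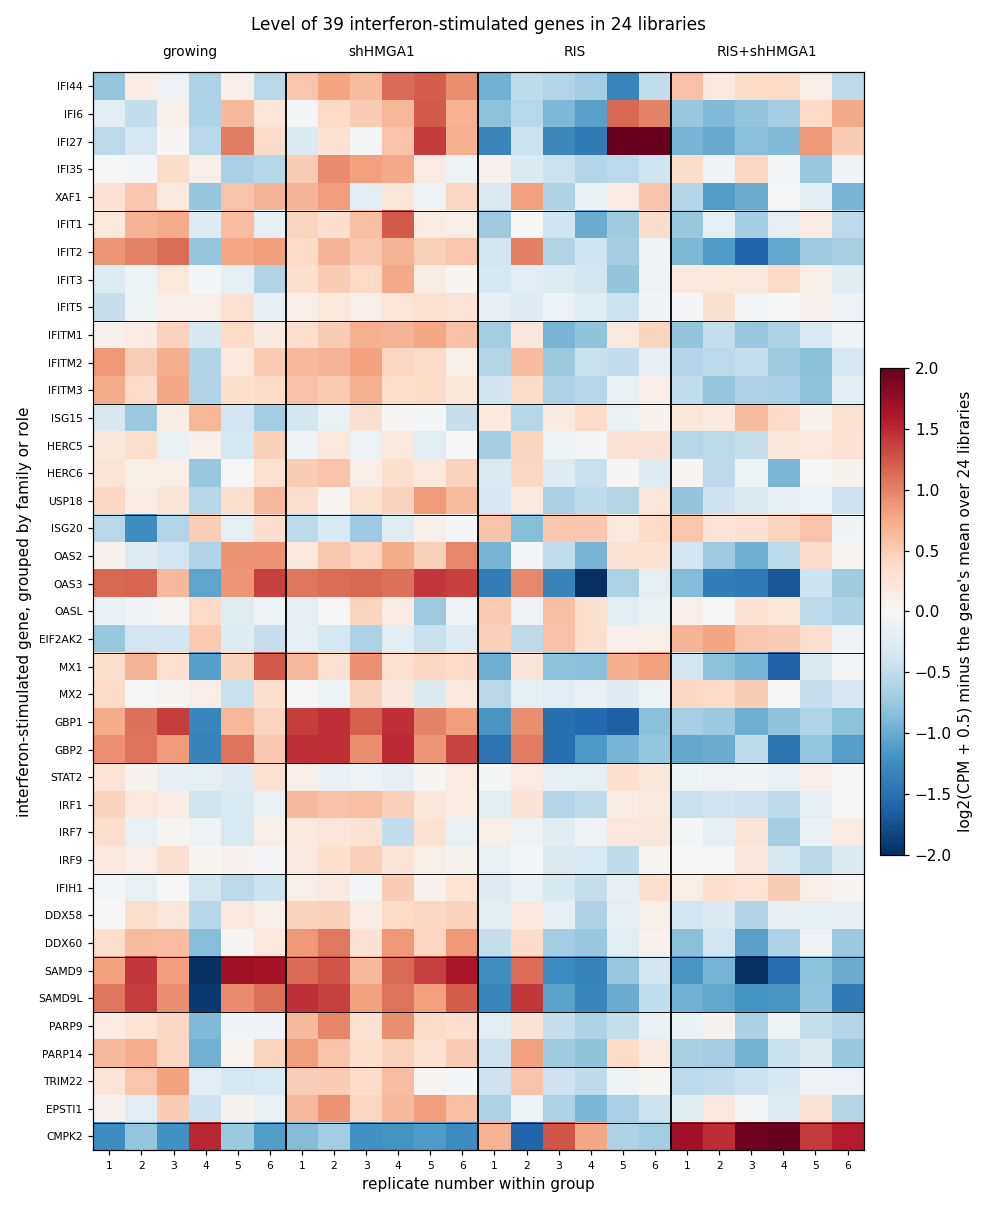
Level of the 39 tested interferon-stimulated genes (rows, grouped by family or role) in each of 24 libraries (columns, 6 per group), as log2(CPM + 0.5) minus the gene's mean over all libraries. SAMD9, SAMD9L, GBP1, GBP2 and OAS3 are low in most libraries of both 4OHT groups, CMPK2 is high in RIS+shHMGA1, and growing replicate 4 and RIS replicate 2 resemble the other 4OHT state.

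In growing cells, the hairpin was accompanied by higher IFI44, and by no other listed gene past the threshold. A gene was called at an edgeR Benjamini-Hochberg adjusted p under 0.01, over all tested genes, with an absolute log2 fold change over 0.58. By this rule 1 of 39 listed genes was called higher in shHMGA1 than in growing cells and 0 lower, where 0.135% of all tested genes were called higher and 0.135% lower. At an unadjusted p under 0.05, 11 listed genes were higher and 0 lower, where 5.44% of all tested genes were higher and 7.73% lower. The log2 fold change was above 0 in 31 of 39 listed genes (79.5%), against 44.5% of all tested genes, with a median of 0.23 against -0.03. Without IFI44, 10 of the other 38 genes were higher at an unadjusted p under 0.05 and 30 were above 0, with a median of 0.21. On 22 libraries IFI44 was again the 1 gene called of 39, where 1.21% of all tested genes were called higher and 1.39% lower. There 29 of 39 were above 0, with a median log2 fold change of 0.14 against -0.00 over all tested genes. At an unadjusted p under 0.05, 11 listed genes were higher and 1 lower (IFIT2). Of all tested genes, 20.4% were higher and 18.5% lower at that p.

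IFI44 was lowest at 3.69, median 5.23 and highest at 7.43 CPM in growing cells, and at 9.96, 12.5 and 16.0 CPM in shHMGA1 cells. In RIS cells it was at 2.37, 4.09 and 4.56 CPM, and in RIS+shHMGA1 cells at 4.46, 8.18 and 10.3 CPM. The hairpin groups were high in both states. Growing and shHMGA1 cells did not overlap, while 1 RIS+shHMGA1 library (replicate 6) lay within the range of the RIS libraries. The log2 fold change of IFI44 was 1.23 (SE 0.21, edgeR adjusted p = 0.00354) in growing cells and 1.05 (SE 0.22, edgeR adjusted p = 0.00542) in RIS cells. As its rise was known when the list was drawn up, these values are a description. On 22 libraries the log2 fold changes were 1.17 and 1.10. The call in growing cells was lost in each of the 6 fits that left out 1 replicate number from every group, with log2 fold changes from 1.09 to 1.36 and adjusted p between 0.0112 and 0.0298, and in RIS cells in 4 of these 6 fits. Every library of shHMGA1 was above every growing library for IFI44 alone among the 39, where 0.749% of all tested genes had that pattern.

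In RIS cells the list did not lean upwards with the hairpin. IFI44 was the 1 of 39 genes called higher in RIS+shHMGA1 than in RIS cells and 0 were called lower, where 1.77% of all tested genes were called higher and 0.786% lower. The log2 fold change was above 0 in 12 of 39 (30.8%), against 45.6% of all tested genes, with a median of -0.17 against -0.06. At an unadjusted p under 0.05, 6 were higher (15.4%) and 4 lower (10.3%), where 22.7% of all tested genes were higher and 27.1% lower. On 22 libraries 16 of 39 were above 0, 2 genes were called higher (IFI44 and CMPK2) and 1 lower (IFIT2), where 10.0% of all tested genes were called higher and 2.50% lower.

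**Figure D2:**
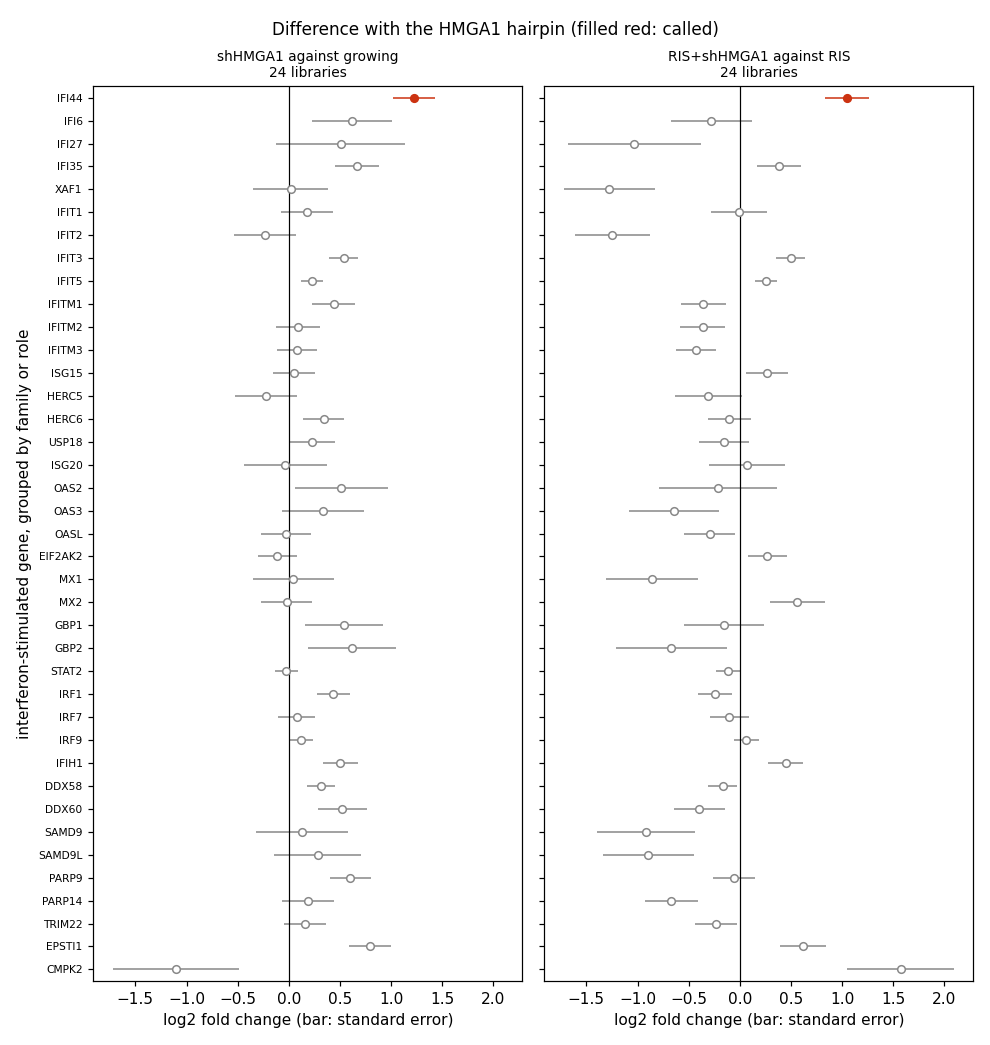
Log2 fold change with the HMGA1 hairpin (x axis, point) and its standard error (bar) for each of the 39 tested genes, in growing cells (left) and in RIS cells (right), edgeR on 24 libraries. IFI44 is the filled red point in both panels, at 1.23 and 1.05, and 31 of 39 points on the left but 12 of 39 on the right are above 0 (29 and 16 on 22 libraries).

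A small group of genes had a nominally higher level with the hairpin in both states, in libraries that the 2 comparisons do not share. Beside IFI44, whose rise was known, these were IFIT3, IFIT5, IFIH1 and EPSTI1, singled out after their values were seen. They were 4 of the 10 other genes higher at an unadjusted p under 0.05 in growing cells and of the 5 in RIS cells, or 10.5% of the 38, where 3.37% of all tested genes were higher in both. On 22 libraries the share was 13.2% of the 38 genes against 16.6% of all tested genes, so that it did not exceed the background there.

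IFIT3, of the IFIT proteins that bind foreign RNA and adaptors of its sensing, was lowest at 15.8, median 21.8 and highest at 27.9 CPM in growing, 24.7, 31.4 and 41.2 CPM in shHMGA1, 13.7, 19.4 and 22.9 CPM in RIS and 20.4, 27.8 and 31.6 CPM in RIS+shHMGA1 cells. The groups with and without the hairpin overlapped in both states, by few libraries. Its log2 fold changes were 0.54 (SE 0.14, edgeR adjusted p = 0.0871) in growing and 0.50 (SE 0.15, edgeR adjusted p = 0.0191) in RIS cells. EPSTI1, an interferon-induced gene first described in breast cancer stroma, was at 1.29 to 2.90 CPM in growing, 2.72 to 3.96 CPM in shHMGA1, 0.763 to 1.72 CPM in RIS and 1.09 to 2.41 CPM in RIS+shHMGA1 cells. Its log2 fold changes of 0.79 and 0.62 had edgeR adjusted p of 0.0727 and 0.0405. IFIH1, the sensor of long double-stranded RNA also called MDA5, differed by 0.51 and 0.45 (edgeR adjusted p = 0.184 and 0.0449), and IFIT5 by 0.23 and 0.26 (edgeR adjusted p = 0.369 and 0.0650). None of these 4 genes passed the threshold in either state, on 24 or on 22 libraries.

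By role, the 3 RNA sensors IFIH1, DDX58 (RIG-I) and DDX60 had log2 fold changes of 0.51, 0.31 and 0.52 with the hairpin in growing cells and 0.45, -0.17 and -0.40 in RIS cells. On 22 libraries these were 0.47, 0.21 and 0.38 in growing and 0.45, -0.09 and -0.22 in RIS cells. In growing cells all 3 had an unadjusted p under 0.05 on 24 libraries and 2 on 22, against the shares of 5.44% and 20.4% of all tested genes given above. Of the signalling factors, STAT2 and IRF9, which act in the same complex, were at -0.02 and 0.12 in growing and -0.11 and 0.06 in RIS cells. IRF1, a factor that interferon gamma induces, was at 0.44 and -0.24, and IRF7, which amplifies interferon production, at 0.08 and -0.10. On 22 libraries IRF1 was at 0.36 and -0.15, and the other 3 factors were between -0.12 and 0.10 in both states. The ISG15 system (ISG15, its ligases HERC5 and HERC6 and its protease USP18) ranged from -0.22 to 0.34 in growing and from -0.31 to 0.26 in RIS cells, and on 22 libraries from -0.24 to 0.28 and from -0.19 to 0.17. The membrane proteins IFITM1, IFITM2 and IFITM3 were at 0.44, 0.09 and 0.08 in growing and at -0.36, -0.36 and -0.43 in RIS cells. On 22 libraries they were at 0.36, -0.052 and -0.058 in growing and at -0.26, -0.10 and -0.29 in RIS cells, so that IFITM2 and IFITM3 changed sign in growing cells. None of these genes was called in either hairpin comparison, on 24 or on 22 libraries.

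IFIT2, an IFIT protein known to promote apoptosis, was the 1 listed gene called lower with the hairpin in RIS cells on 22 libraries. It was lowest at 1.16, median 4.62 and highest at 5.65 CPM in growing cells, where growing replicate 4 was the low value, and at 3.24, 3.62 and 4.05 CPM in shHMGA1 cells. In RIS cells it was at 1.27, 1.66 and 5.17 CPM, with RIS replicate 2 at the top, and in RIS+shHMGA1 cells at 0.434, 0.946 and 1.29 CPM. The RIS+shHMGA1 libraries were the low ones, with 1 of the RIS libraries inside their range. With the hairpin in RIS cells IFIT2 fell by 1.25 on the log2 scale (SE 0.37, edgeR adjusted p = 0.0193) on 24 libraries. On 22 libraries it fell by 0.80 (SE 0.22, edgeR adjusted p = 0.00847). In growing cells the log2 fold change was -0.23 on 24 and -0.41 on 22 libraries, without a call. Its unadjusted edgeR p there was under 0.05 on 22 libraries, where 18.5% of all tested genes were lower at that p. Without replicate 4, growing cells were at 4.35 to 5.65 CPM and did not overlap shHMGA1 cells.

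CMPK2, a mitochondrial nucleotide kinase, was lowest at 0.595, median 0.851 and highest at 6.82 CPM in growing cells, where the top value was growing replicate 4 and the other 5 libraries were at or below 1.04 CPM. It was at 0.582, 0.653 and 1.09 CPM in shHMGA1 cells, 0.363, 2.44 and 5.69 CPM in RIS cells and 6.32, 7.44 and 10.2 CPM in RIS+shHMGA1 cells. Every RIS+shHMGA1 library was thus above every RIS library, a pattern that 8.00% of all tested genes had and that CMPK2 alone had among the 39. The log2 fold change in RIS cells was 1.57 (SE 0.52, edgeR adjusted p = 0.0281) on 24 libraries and 1.34 (SE 0.28, edgeR adjusted p = 0.00201) on 22. In growing cells it was -1.10 (edgeR adjusted p = 0.465) on 24 libraries and -0.04 on 22. The annotation of CMPK2 overlaps that of RSAD2 on the opposite strand (GRCh37 chromosome 2, 6980701 to 7006766 and 7005688 to 7038370), and as the strand setting of the counting is not known, reads in the overlap cannot be assigned. RSAD2, which makes the antiviral nucleotide that CMPK2 feeds, had at most 1.19 CPM in any library.

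**Figure D3:**
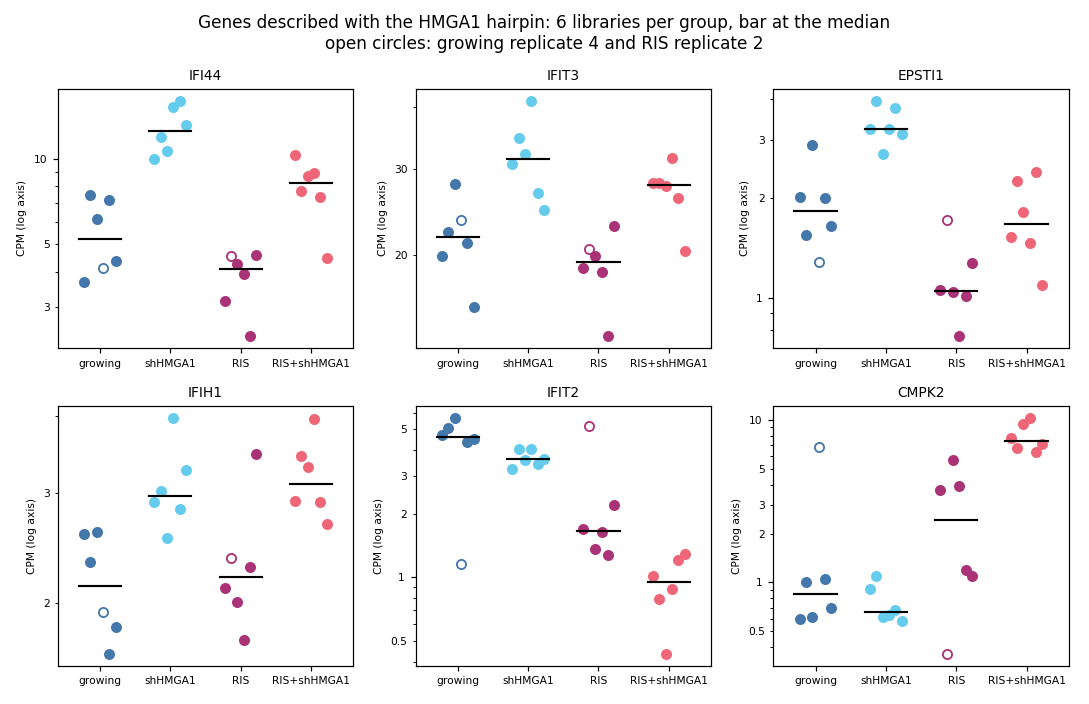
Level of 6 genes in CPM (y axis, log scale) in each library of the 4 groups, with bars at the medians and open circles for growing replicate 4 and RIS replicate 2. IFI44, IFIT3, EPSTI1 and IFIH1 have higher medians with the hairpin in both states, IFIT2 is lowest in RIS+shHMGA1, and CMPK2 is above 6 CPM in every RIS+shHMGA1 library.

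With 4OHT, in cells that carried the hairpin, most of the list was lower. Of 39 genes, 21 were called lower in RIS+shHMGA1 than in shHMGA1 cells and 2 higher, where 19.5% of all tested genes were called lower and 19.6% higher. The median log2 fold change was -0.80, against -0.02 over all tested genes, and 33 of 39 were below 0. In 19 of the 39, every RIS+shHMGA1 library was below every shHMGA1 library, where 22.5% of all tested genes had that pattern. On 22 libraries, from which no library of these groups was left out, 22 genes were called lower and 2 higher, where 21.9% of all tested genes were called lower and 22.5% higher. In a bulk sample, less RNA per cell and fewer cells that express a gene cannot be told apart.

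In cells with the empty vector, the same comparison of RIS with growing cells turned on growing replicate 4 and RIS replicate 2. On 24 libraries 0 of 39 listed genes and 0% of all tested genes were called by edgeR in either direction, while 14 listed genes (13 lower, 1 higher) and 4407 of all tested genes had an unadjusted p under 0.05. DESeq2 called 1 listed gene and limma voom with sample weights 24. The shares of all tested genes called by DESeq2 and voom are not given here, so these counts are no result about the list. On 22 libraries 16 listed genes were called, 13 lower and 3 higher (CMPK2, EIF2AK2 and ISG20), where 20.5% of all tested genes were called lower and 19.2% higher. The median log2 fold change of the list was -0.28 on 24 libraries and -0.53 on 22. In 10 genes every RIS library was then below every growing library, where 19.3% of all tested genes had that pattern.

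**Figure D4:**
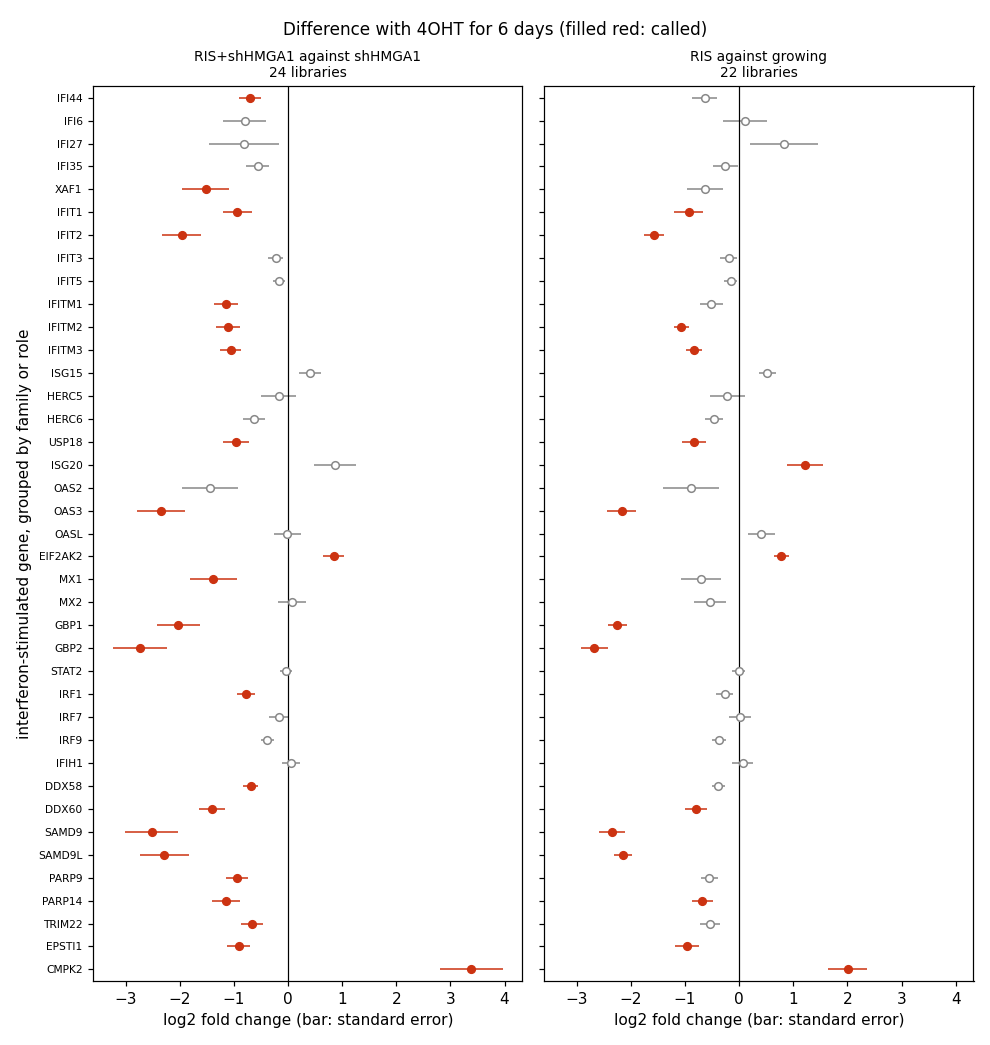
Log2 fold change with 4OHT (x axis, point) and its standard error (bar) for each of the 39 tested genes, in hairpin cells on 24 libraries (left) and in empty-vector cells on 22 libraries (right). Filled red points are called genes, 21 lower and 2 higher on the left and 13 lower and 3 higher on the right, with GBP2 lowest and CMPK2 highest in both panels.

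The guanylate-binding proteins GBP1 and GBP2, large GTPases that act on vacuoles of intracellular microbes, were among those that fell most. GBP2 was lowest at 4.24, median 6.29 and highest at 6.75 CPM in shHMGA1 cells and at 0.439, 0.774 and 1.30 CPM in RIS+shHMGA1 cells. GBP1 was at 59.4, 81.3 and 91.1 CPM in shHMGA1 cells and at 16.4, 19.1 and 21.5 CPM in RIS+shHMGA1 cells. Neither gene's groups overlapped. The log2 fold changes were -2.74 (SE 0.50, edgeR adjusted p = 0.000293) for GBP2 and -2.03 (SE 0.40, edgeR adjusted p = 0.000415) for GBP1. In empty-vector cells GBP2 was at 0.514 to 4.96 CPM in growing and 0.401 to 4.81 CPM in RIS cells, and its log2 fold change was -1.45 on 24 libraries and -2.67 on 22. GBP1 was at 13.0 to 86.4 CPM in growing and 10.3 to 63.1 CPM in RIS cells, with log2 fold changes of -1.33 and -2.25. The other large GTPases, MX1 and MX2, block virus particles in the cytoplasm and at the nucleus. MX1 was at 2.52, 2.73 and 4.13 CPM in shHMGA1 and at 0.292, 1.14 and 1.89 CPM in RIS+shHMGA1 cells, without overlap (log2 fold change -1.38, SE 0.44, edgeR adjusted p = 0.00957), and MX2 had a log2 fold change of 0.06 without a call. In empty-vector cells MX1 was at 0.643, 2.71 and 5.22 CPM in growing and 0.738, 1.67 and 3.83 CPM in RIS cells, overlapping, and it was called on neither set of libraries.

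SAMD9 and SAMD9L, neighbours on chromosome 7 (GRCh37, 92728826 to 92747336 and 92759369 to 92777698, minus strand), are antiviral factors that restrict growth. SAMD9 was at 20.01, 29.5 and 39.8 CPM in shHMGA1 cells and at 2.61, 5.69 and 6.92 CPM in RIS+shHMGA1 cells. SAMD9L was at 37.7, 47.9 and 59.6 CPM in shHMGA1 cells and at 7.64, 9.67 and 12.04 CPM in RIS+shHMGA1 cells. Every library with 4OHT was below every library without. Their log2 fold changes were -2.52 (SE 0.49, edgeR adjusted p = 0.000397) and -2.29 (SE 0.46, edgeR adjusted p = 0.000459), and on 22 libraries -2.35 and -2.14 in empty-vector cells. There SAMD9 was lowest at 2.19, median 28.6 and highest at 42.0 CPM in growing and 4.69, 6.13 and 27.8 CPM in RIS cells. SAMD9L was at 5.27, 43.2 and 56.4 CPM in growing and 8.29, 10.1 and 57.2 CPM in RIS cells. Growing replicate 4 had the lowest growing value and RIS replicate 2 the highest RIS value of both genes.

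**Figure D5:**
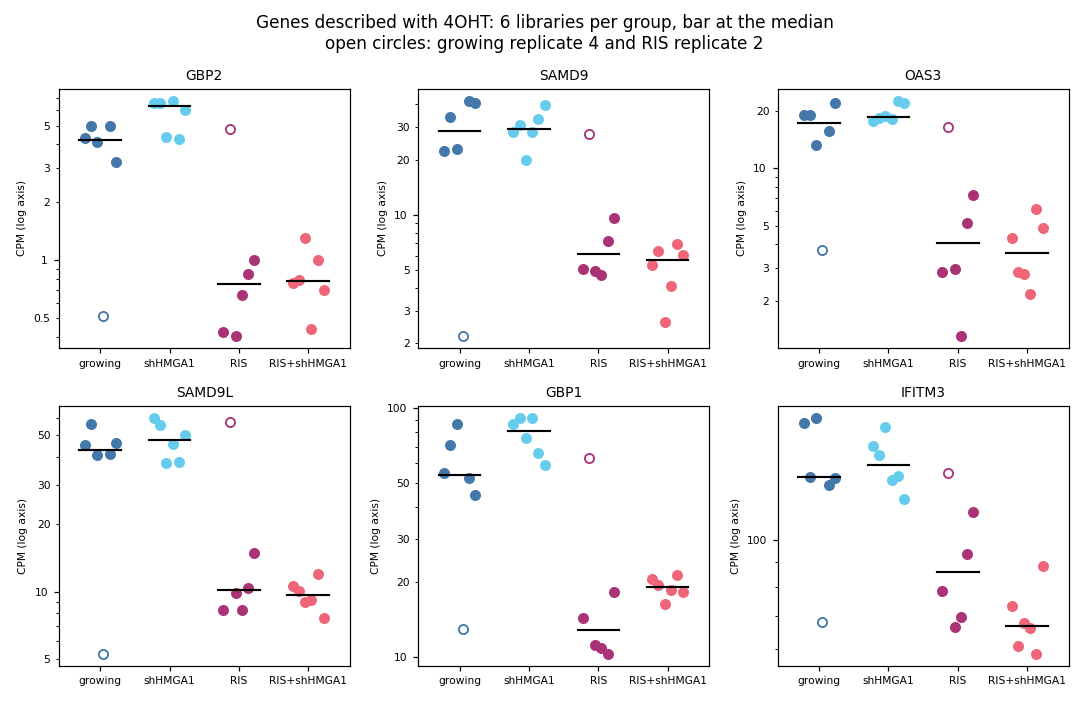
Level of 6 genes in CPM (y axis, log scale) in each library of the 4 groups, with bars at the medians and open circles for growing replicate 4 and RIS replicate 2. The RIS+shHMGA1 libraries lie below all shHMGA1 libraries in each panel, and the open circles lie with the other 4OHT state.

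Of the RNA degradation genes, OAS3, an oligoadenylate synthetase that activates RNase L, was at 17.8, 18.7 and 22.8 CPM in shHMGA1 cells and at 2.19, 3.58 and 6.12 CPM in RIS+shHMGA1 cells, without overlap. Its log2 fold change was -2.35 (SE 0.44, edgeR adjusted p = 0.000322). In empty-vector cells OAS3 was at 3.73, 17.4 and 22.1 CPM in growing and at 1.31, 4.06 and 16.6 CPM in RIS cells, with a log2 fold change of -1.37 on 24 and -2.17 on 22 libraries. EIF2AK2, the kinase PKR that blocks translation, was one of the pair of genes called higher, from 30.7 to 41.7 CPM in shHMGA1 to 45.1 to 83.3 CPM in RIS+shHMGA1 cells (log2 fold change 0.84, SE 0.19, edgeR adjusted p = 0.00119). The other was CMPK2, whose groups are given above (log2 fold change 3.38, SE 0.59, edgeR adjusted p = 0.000241). OAS2 (-1.45), OASL (-0.02) and the exonuclease ISG20 (0.87) were not called in hairpin cells.

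Of the IFIT genes, IFIT2 fell by 1.97 on the log2 scale (SE 0.36, edgeR adjusted p = 0.000273) with 4OHT in hairpin cells, without overlap of the groups, and by 1.58 on 22 libraries in empty-vector cells. IFIT1 was called lower as well (-0.94), whereas IFIT3 and IFIT5 differed by -0.23 and -0.17 without a call. IFI44 itself was called lower in RIS+shHMGA1 than in shHMGA1 cells, by -0.70 (SE 0.21, edgeR adjusted p = 0.00584), and was not called in RIS against growing cells (-0.52).

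All 3 tested membrane proteins were called lower in RIS+shHMGA1 than in shHMGA1 cells. IFITM1, which blocks virus entry at the cell surface, was at 12.9, 15.9 and 17.6 CPM in shHMGA1 and 5.58, 6.68 and 9.53 CPM in RIS+shHMGA1 cells (log2 fold change -1.14, SE 0.22, edgeR adjusted p = 0.000364). IFITM2 was at 36.4, 49.3 and 58.8 CPM against 18.5, 22.6 and 26.4 CPM (-1.12, SE 0.22, edgeR adjusted p = 0.000456). IFITM3 was at 122, 142 and 171 CPM against 58.5, 66.8 and 88.6 CPM (-1.06, SE 0.20, edgeR adjusted p = 0.000293). The groups of all 3 genes were separate. IFITM2 and IFITM3 are close copies on chromosome 11, and reads that match both may have been dropped or split in the counting. In empty-vector cells the log2 fold changes on 22 libraries were -0.51, -1.07 and -0.83, and IFITM1 was not called.

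DDX60, a helicase that supports RIG-I, was at 11.6, 17.6 and 20.1 CPM in shHMGA1 and 4.17, 5.73 and 8.93 CPM in RIS+shHMGA1 cells (log2 fold change -1.41, SE 0.25, edgeR adjusted p = 0.000252). PARP14, a mono-ADP-ribosyl transferase, was at 29.8, 33.8 and 42.9 CPM against 12.2, 14.8 and 19.5 CPM (-1.15, SE 0.26, edgeR adjusted p = 0.00108). Both genes had separate groups. XAF1, a partner of the apoptosis inhibitor XIAP, was at 0.790, 1.39 and 2.19 CPM against 0.197, 0.403 and 1.02 CPM, with overlap (-1.52, SE 0.43, edgeR adjusted p = 0.00478). On 22 libraries in empty-vector cells DDX60 (-0.80) and PARP14 (-0.68) were called and XAF1 (-0.64) was not. The remaining genes called lower in hairpin cells were DDX58, EPSTI1, IFIT1, IRF1, PARP9, TRIM22 and USP18, with log2 fold changes from -0.96 to -0.67. STAT2, IRF7 and IRF9, the factors of the pathway, were not called, at -0.04, -0.17 and -0.38, nor was ISG15, at 0.41.

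A pair of GAAA blocks was in the promoter window of 11 of the 16 genes called lower with 4OHT in hairpin cells that had a window, and of 8 of the 12 tested genes that were not called there. CMPK2 had none in its window and EIF2AK2 had 1.

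The interaction, which asks whether the difference with the hairpin was another in RIS than in growing cells, was called for 0 of 39 listed genes and 0% of all tested genes by edgeR on 24 libraries, and 0 listed genes were called by DESeq2. At an unadjusted p under 0.05 there were 9 listed genes (23.1%), 1 higher and 8 lower, where 10.3% of all tested genes had such a p. The interaction was below 0 in 33 of 39, with a median of -0.44 against -0.03. On 22 libraries it was called for 0 of 39 and for 0.00745% of all tested genes, with 4 listed genes at an unadjusted p under 0.05 (10.3%, against 3.82% of all tested genes) and a median of -0.16 against -0.00. For IFI44 the interaction was -0.18 on the log2 scale. A difference between the cell states in how the list moved with the hairpin was therefore not shown for any single gene.

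Replicates 5 and 6 were high in part of the list in RIS cells. In 20 of 39 listed genes (51.3%) both of these RIS libraries were above RIS replicates 1, 3 and 4, against 29.7% of all tested genes, and in RIS+shHMGA1 cells both were above replicates 1 to 4 in 10 (25.6%), against 16.1%. Both were below the others in 5 listed genes in RIS cells (12.8%, against 27.9% of all tested genes). In RIS+shHMGA1 cells they were below in 7 (17.95%, against 25.7%), among them IFI44, IFIT3 and IFIH1. In growing cells, leaving aside replicate 4, both were below in 10 (25.6%, against 14.6%) and above in 6 (15.4%, against 13.95%). IFI27, a mitochondrial and nuclear envelope protein, was at 13.4 and 13.1 CPM in RIS replicates 5 and 6 and between 0.763 and 2.00 CPM in the other 4 RIS libraries. IFI6, which protects the endoplasmic reticulum from viral replication, was at 48.5 and 43.4 CPM in the same pair and between 9.93 and 14.4 CPM in the others. These 2 genes were above the other libraries in replicates 5 and 6 of all 4 groups, leaving aside growing replicate 4 and RIS replicate 2. The labels give no batch for these libraries, and its part in the values was not tested.

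Upstream of the list, 21 of 33 genes of the interferon pathway passed the filter, and of 9 interferon genes IFNE alone did. STAT3 was called lower in RIS+shHMGA1 than in RIS cells (log2 fold change -0.72, SE 0.16, edgeR adjusted p = 0.00669), and no other pathway gene was called with the hairpin in either state. With 4OHT in hairpin cells 5 pathway genes were called higher, IFNE, IFNGR2, IRF2, SOCS3 and PTPN2, and the kinase TYK2 lower, where 19.6% of all tested genes were called higher and 19.5% lower. The 5 are 23.8% of the 21 and TYK2 is 4.76%, so that the share called higher was near the background. SOCS3 and PTPN2, inhibitors of JAK and STAT signalling, had log2 fold changes of 1.67 and 0.84. Of the 5 inhibitors listed, 3 were above 0 and 2 below, with a median of 0.16 and a lowest value of -0.26.

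A further 37 interferon-stimulated genes, of which 32 were tested, gave 0 calls with the hairpin in growing cells by edgeR, with 5 at an unadjusted p under 0.05, all higher (15.6%, where 5.44% of all tested genes were higher). On 22 libraries 10 were higher (31.2%) and 3 lower (9.38%) at that p, where 20.4% of all tested genes were higher and 18.5% lower. In RIS cells 2 were called higher (6.25%) and 0 lower, where 1.77% of all tested genes were called higher and 0.786% lower. The 2 were PLSCR1, a phospholipid scramblase, at 0.95 (SE 0.20, edgeR adjusted p = 0.00562) and B2M, the light chain of MHC class I, at 1.47 (SE 0.32, edgeR adjusted p = 0.00708). On 22 libraries B2M was called in growing cells as well (0.98), and UBE2L6 (0.60), an enzyme of ISG15 conjugation, and ZNFX1 (-0.60) in RIS cells. The 1 call in growing cells was 3.125% of the 32, where 1.21% of all tested genes were called higher. In RIS cells 3 were then called higher (9.375%) and 1 lower (3.125%). Of all tested genes 10.0% were called higher there and 2.50% lower, so that these shares were near the background. With 4OHT in hairpin cells 5 of the 32 were called higher (15.6%) and 11 lower (34.4%), where 19.6% of all tested genes were called higher and 19.5% lower.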

How the data were processed

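RNA-seq counts of 24 IMR90 ER:HRAS(G12V) samples were analysed, 6 in each of 4 groups taken from the labels. The authors deposited raw counts per Entrez gene identifier, made from reads mapped to hg19 with STAR 2.5.0b after trimming with cutadapt 1.10.0, per the submitters' processing notes, and counted with Rsubread. The annotation and strand setting of the counting are not given in the sources used here. The kit was stranded and selected mRNA.

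The count test was edgeR 4.0.16 in R 4.3.3 (quasi-likelihood, filterByExpr by group, TMM, group means of all samples, no covariate), with Benjamini-Hochberg adjustment over all 13356 tested genes. A gene was called where its log2 fold change exceeded 0.58 in size at an FDR under 0.01. Differences are log2 fold changes of counts, and the listed genes' rows were read out with no test over the list. Shares are given beside those of all tested genes. Comparisons of the hairpin and of 4OHT share samples, whereas those of the hairpin in growing and in RIS cells share none. The members and lists were chosen with earlier results of these data known. Full values were given for IFI44, for genes called with the hairpin on 24 or 22 libraries and for the 12 largest others called with 4OHT or in the interaction, and other genes by role. IFIT3, IFIT5, IFIH1 and EPSTI1 were singled out after their values were seen.

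The edgeR script was tested on simulated counts with known changes. Those counts had the same spread for all genes, no library near the other 4OHT state and no change in genes of low level. They therefore say nothing about how such libraries or genes affect the calls. The lowest chi-square per gene between a pair of libraries of a group was 2.89, so none was counted as a duplicate. Symbols were matched by Entrez identifier in RefSeq (23696 of 25702). Coordinates and transcript lengths are GENCODE's for GRCh37, and promoter sequences RefSeq's for GRCh38.p14. Alternatives were DESeq2 1.42.0, RLE scaling, no filter on low counts, a replicate block, FDR under 0.05 without a fold threshold, limma 3.58.1 voom with sample weights, fits on the compared samples, on 22 libraries and without each replicate number.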

Additional observations from a re-analysis of the deposited data

Results flagged for a closer look

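In the 15 genes described in full, 60 groups of 6 libraries were searched for a library far from the others by Dixon's ratio (the gap to the nearest library over the group's range). For a single group chance gives about 1 in 20, and 9 groups passed the ratio's 95% critical value. All 9 were growing replicate 4 (3 genes) or RIS replicate 2 (6 genes). The genes were measured in the same libraries, so the groups are not independent and 1 in 20 is no expectation for the count of 9. IFIT2 and CMPK2 were among the 15 through hairpin calls made on the 22 libraries without this pair, so their flags depend in part on that choice. GBP2, SAMD9, SAMD9L, GBP1 and IFITM2 were among the 15 for the size of their differences with 4OHT. A library near the other 4OHT state would tend to stand apart in such genes. Their flags are therefore not independent of the distances of this pair given above.

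Growing replicate 4 was lowest for IFIT2 (ratio 0.711) and SAMD9L (0.699) and highest for CMPK2 (0.928). RIS replicate 2 was highest for IFIT2 (0.764), GBP2 (0.863), SAMD9 (0.788), SAMD9L (0.864), GBP1 (0.850) and IFITM2 (0.690). These are the same libraries whose distance to the other 4OHT state was smaller than to their own group. The cause was not tested.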

How the results depend on the processing

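The calls in hairpin cells with 4OHT numbered 23 of 39 and between 18 and 27 under the alternatives run, and the interaction was called for 0 genes wherever it was fitted. With the hairpin in growing cells, the 1 call became 2 with voom and 0 on the compared samples alone, and 0 to 0 without each replicate number in turn. With the hairpin in RIS cells, the 1 call became 2 with DESeq2, 8 at an FDR under 0.05 without a fold threshold, 6 with voom, 3 on 22 libraries, 0 on the compared samples alone and 0 to 4 without each replicate number, 4 being without number 4. For RIS against growing cells, 0 calls became 1 with DESeq2, 7 at an FDR under 0.05, 24 with voom, 16 on 22 libraries and 0 to 8 without each number, 8 being without number 2 and 4 without number 4. The median of the list there moved from -0.28 to -0.75 with voom. Except on 22 libraries and for the counts that changed with a replicate block, the counts under the alternatives are not set beside all tested genes called. They show how the calls depend on the processing and are no result about the list.

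With the hairpin some log2 fold changes of genes without a call changed sign. In growing cells these were, with voom, SAMD9 (-0.079), XAF1 (-0.041), MX1 (-0.15) and PARP14 (-0.016), and on 22 libraries SAMD9 (-0.10), XAF1 (-0.14), MX1 (-0.13), IFITM2 (-0.052) and IFITM3 (-0.058). Without each replicate number there, SAMD9 ranged from -0.11 to 0.26, XAF1 from -0.13 to 0.19, MX1 from -0.11 to 0.32, IFITM2 from -0.048 to 0.18 and IFITM3 from -0.052 to 0.15, the lowest values being without number 4. In RIS cells they were, with voom, GBP2 (0.51), OAS3 (0.24), SAMD9L (0.066), GBP1 (0.57) and IFITM1 (0.043), and on 22 libraries GBP2 (0.36) and GBP1 (0.56). Without each replicate number, GBP2 ranged from -1.05 to 0.37, OAS3 from -0.87 to 0.054 and GBP1 from -0.33 to 0.55, the highest values being without number 2. The cause was not tested.

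With a replicate block, the hairpin calls in RIS cells became 2 and those with 4OHT in hairpin cells 26, with the other counts as before. Of all 13356 tested genes, 1637 were then called with the hairpin in RIS cells, against 341 without the block. The 2 listed genes were both higher (5.13% of 39), where 1242 of all tested genes were. With 4OHT in hairpin cells 5667 of all tested genes were called, against 5220 without the block. These counts of the list thus rose along with those of all tested genes. GBP1 changed sign in RIS cells (0.097). The libraries share only a number: same-numbered deviations from the group means correlated from -0.59 to 0.83. The highest values, 0.83 and 0.77, were those of RIS with growing cells at numbers 4 and 2. These numbers hold growing replicate 4 and RIS replicate 2, which were kept in the group means. For the hairpin, 8 of 12 libraries correlated best with their own number in growing cells and 4 of 12 in RIS cells. Fits without replicate numbers hold 5 libraries per group, and OAS2, HERC5, MX2, CMPK2, ISG20 and XAF1 had the lowest median counts of the tested genes, at or below 14 per library.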
